A study of Canis lupus familiaris with 23 samples.

Results

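Markers of hair follicle stem cells and of the outer root sheath were followed through 23 libraries of dog skin and dog skin organoids. The markers are the 9 genes LHX2, CD34, LGR5, SOX9, LRIG1, DKK3, PHLDA1, KRT75 and SOX21, out of 21416 genes named in the count lists. They were taken by name, with no threshold on a measured value, from a list drawn up with earlier results of these data known. KRT75 stands in the lists under the provisional locus name LOC100683813 and was found through its RefSeq gene identifier. All 9 genes are listed for 17 libraries. LGR5 is not listed for the 6 libraries in differentiation medium and is not analysed there. The lists of those 6 libraries hold 18113 entries and those of the other 17 hold 20448, with 17141 in both. In the 6 lists 3403 entries were at 0 in all 6 libraries, whereas 0 entries of the other lists were at 0 in all 17.

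The study grew organoids, small 3-dimensional cultures that start from tissue cells, from hair follicles and from the epidermis between follicles of the dog. RNA was counted by CEL-seq2, which reads one end of each transcript, so that counts of different genes are not compared with each other here. The fresh tissues were whole skin, hair follicles in both growth and resting phase, and interfollicular epidermis, with 2 libraries each. Follicle organoids in expansion medium were taken 7 days into culture, either early (passage 0 to 1) or later (passage 3 to 6). Of the follicle organoids, 3 early and 2 later libraries had an inhibitor of TGF-beta signalling in the medium, and 2 early and 2 later libraries had none. The epidermis between follicles gave organoids only in medium holding the inhibitor, with 1 library at early and 1 at later passage. Later-passage follicle organoids were also held for 7 days in differentiation medium, in that medium lacking Noggin and R-Spondin-1, and in that medium lacking Noggin, R-Spondin-1 and Forskolin, with 2 libraries each. No inhibitor is named for these 6 libraries, and they were set against the later organoids without inhibitor. The labels name no dog, breed, age or sorting gate, and do not say whether replicates came from separate dogs or cultures, so p-values measure only the spread between these libraries, which may be technical. All groups shared the estimate of spread. The early and later interfollicular organoid groups, with 1 library each, added nothing to it. Their SEs and p-values rest on the spread within the other groups, not between interfollicular cultures.

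The hair follicle renews itself from stem cells in the bulge of its outer root sheath and in the hair germ below it, which build a new hair at each growth phase. Bulge cells are quiescent for long periods and are known by transcription factors such as LHX2 and SOX9, by the surface protein CD34 in mouse and by PHLDA1 and DKK3 in several species, whereas cycling cells of the lower bulge and germ carry LGR5 and cells of the upper follicle carry LRIG1. KRT75 is a keratin of the companion layer, between outer and inner root sheath, and SOX21 is a transcription factor known for its role in the hair shaft cuticle.

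Library totals ran from 84439 to 4792577 counts. Where a count was 0, 3 counts were taken as the limit, roughly the upper 95% limit from counting error and not a hard bound. In single libraries 3 counts correspond to between 0.626 and 35.5 CPM, the count scaled to 1000000 counts in the library. The lower end is an early organoid library and the upper end the second epidermis library. Levels below are on library sizes scaled by the TMM method. Changes are log2 differences between group means with an approximate standard error (SE), from edgeR's quasi-likelihood test on 9888 genes (9732 where differentiation libraries enter). The SE is the absolute change divided by the square root of the test's F statistic, as edgeR reports none. A gene is called at a Benjamini-Hochberg adjusted p under 0.05 over all of these genes. In bulk RNA, fewer cells of a type and less RNA per cell cannot be told apart. The basal keratinocyte markers KRT5, KRT14, TP63, ITGB4 and COL17A1 summed to between 6772 and 16040 CPM in the tissues and between 26660 and 76710 CPM in the organoids, with ITGB4 at 0 in interfollicular epidermis and in its organoids.

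The members differ in how much of them was read. DKK3 gave 8826 counts over the 23 libraries, PHLDA1 8407, KRT75 3012, SOX21 2388, LHX2 857, CD34 229 and LRIG1 137. SOX9 gave 35 counts and LGR5 27. All 9 passed the filter on low counts, which asks for about 14.3 CPM in at least 1 library. LGR5 passed it only through a hair follicle library, CD34 and LRIG1 only through tissue libraries, and SOX9 only through 1 differentiation library. LHX2 passed it through tissue libraries and the later interfollicular organoid library, and through no follicle organoid library. These genes could therefore be tested because of the group in which they are high.

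**Figure D1:**
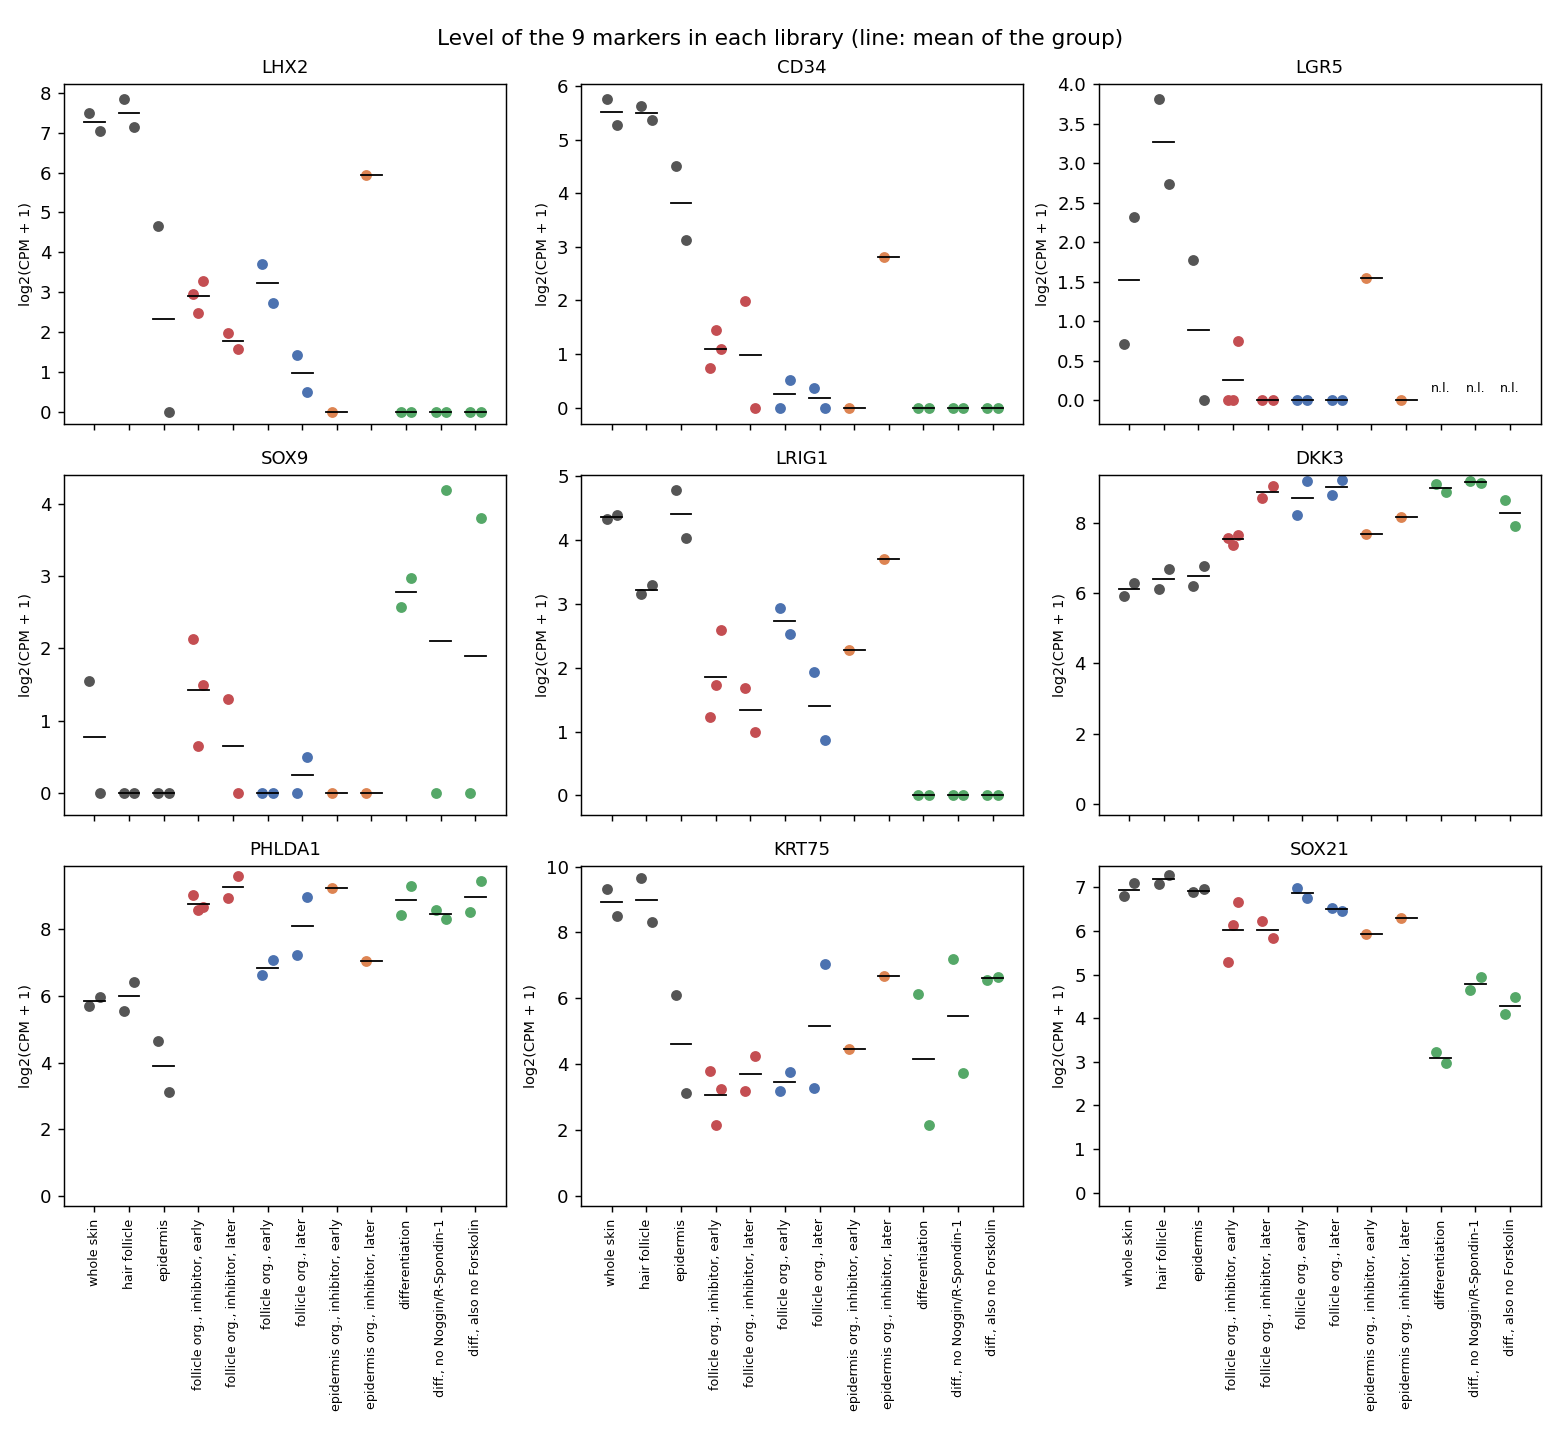
Level of each of the 9 genes in each library, as log2(CPM + 1), by group; points are libraries, lines are group means, and n.l. marks LGR5 where it is not listed. LHX2, CD34, LGR5 and KRT75 stand high in whole skin or hair follicle and low in follicle organoids, whereas DKK3 and PHLDA1 stand higher in the organoids, and SOX21 is lowest in the 6 differentiation libraries.

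In fresh tissue, LHX2 separated hair follicle from interfollicular epidermis, and it was the only member called. LHX2, a LIM-homeodomain factor that holds bulge cells in their stem cell state, stood at 228 and 140.5 CPM in the hair follicle libraries (174 and 224 counts), at 180.1 and 131 CPM in whole skin, and at 24.1 and 0 CPM in epidermis (10 and 0 counts). Both follicle libraries and both skin libraries lay above both epidermis libraries. The log2 change from epidermis to hair follicle was 3.42 (SE 0.63, adjusted p = 0.00444, edgeR), and 2.79% of all genes were called in this comparison, 2.05% of all genes as higher in follicle. From whole skin to epidermis LHX2 fell by 3.20 on the log2 scale (SE 0.63, adjusted p = 0.0116, edgeR), and 1.56% of all genes were called, 1.40% as lower. This call was lost without the first whole skin library or the second epidermis library, and over all alternatives its adjusted p lay between 1.69e-05 and 0.0727. The 11 hair shaft and inner root sheath markers moved in the same order, with sums of 6818 and 7885 CPM in hair follicle, 4632 and 5297 CPM in whole skin, and 736 and 84.8 CPM in the first and second epidermis library, where KRT71 was at 0. Their part in the level of LHX2 was not tested.

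KRT75 followed the same order with a wider spread. It stood at 806 and 317 CPM in hair follicle, 645 and 364 CPM in whole skin, and 67.6 and 7.71 CPM in epidermis (28 and 1 counts). Although the groups did not overlap, the log2 change of 3.60 between follicle and epidermis (SE 1.10) had an adjusted p of 0.088 by edgeR and was not called. It was called with no filter on low counts and in a fit of the compared groups alone, and over all alternatives the adjusted p ran from 1.59e-09 to 0.336.

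CD34, a surface sialomucin that also marks endothelium and dermal fibroblasts, stood at 48.4 and 40.1 CPM in hair follicle, 53.0 and 37.8 CPM in whole skin, and 21.7 and 7.71 CPM in epidermis (9 and 1 counts). The follicle libraries were higher than the epidermis libraries, but the log2 change of 1.33 (SE 0.65) had an adjusted p of 0.321 by edgeR. Markers of CD34's other cell types were read in the same libraries: all 7 fibroblast markers together gave 4383 to 7274 CPM in hair follicle and 1241 to 3635 CPM in epidermis, and the 6 endothelial markers 60.2 to 64.2 CPM and 14.5 to 54.0 CPM, with KDR and CLDN5 at 0 in epidermis. Their part in the level of CD34 was not tested.

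LGR5, the R-spondin receptor of cycling follicle stem cells, was close to the limit of detection. The hair follicle libraries held 10 and 9 counts (13.1 and 5.64 CPM), the whole skin libraries 1 and 2 counts, and the epidermis libraries 1 and 0 counts. On pooled unscaled counts the level in hair follicle was 5.23 times that in whole skin, with a 95% interval of 1.54 to 27.6 from counting error only. The edgeR log2 change of 2.38 between them (SE 1.17) had an adjusted p of 1.

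SOX9, which outer root sheath and bulge cells need, gave 0 counts in hair follicle and in epidermis and 3 counts in whole skin. A count of 0 over both hair follicle libraries allows up to 1.36 CPM, and over both epidermis libraries up to 7.26 CPM. A level of SOX9 below these values was not detectable at this depth. The limits cover counting error only, as details of the annotation used for counting were not given.

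LRIG1, a transmembrane brake on epidermal growth factor receptor signalling, leaned the other way. It stood at 26.5 and 15.4 CPM in epidermis (11 and 2 counts), 19.2 and 19.9 CPM in whole skin, and 7.86 and 8.78 CPM in hair follicle (6 and 14 counts). The follicle libraries were below both other tissues, with a log2 change against epidermis of -1.43 (SE 0.74, adjusted p = 0.35, edgeR).

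The remaining members were not called in the tissues. DKK3, a secreted glycoprotein of the Dickkopf family, ranged from 59.4 to 108 CPM over the 6 tissue libraries, and the groups overlapped. SOX21 ranged from 110.5 to 155 CPM, and its log2 change between follicle and epidermis was 0.27 (SE 0.39). PHLDA1, a pleckstrin homology-like protein used as a bulge marker in human skin, stood at 45.8 and 85.3 CPM in hair follicle, 51.1 and 61.7 CPM in whole skin, and 24.1 and 7.71 CPM in epidermis. Its log2 change between follicle and epidermis was 1.80 (SE 0.67, adjusted p = 0.17, edgeR). Between hair follicle and whole skin edgeR called 0 of the 9 members and 0 of 9888 genes (0%). At an unadjusted p under 0.05 there were 0 members and 144 genes (1.46%), and DESeq2 called 0 members.

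The step from hair follicle to follicle organoids changed 8 of the 9 genes, against 28.0% of all genes tested. LHX2, CD34, LGR5, KRT75, LRIG1 and SOX21 fell, and DKK3 and PHLDA1 rose. By direction, 19.0% of all genes fell and 9.06% rose. The median log2 change of the 9 was -1.57, beside 0.00 over all genes. CD34, LGR5 and LRIG1 had entered the test through the tissue libraries, and LHX2 through these and the later interfollicular organoid library. None of these genes entered through a follicle organoid library, so their falls count only as a description. The same holds for the count of 8 and for the median, which is the value of LRIG1.

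LHX2 stood at 6.73, 4.60 and 8.66 CPM in the early organoids with inhibitor and at 2.94 and 1.99 CPM in the later ones. Without inhibitor it stood at 12 and 5.67 CPM early and at 1.69 and 0.418 CPM later. Each of the 9 libraries held at least 1 count of LHX2, 91 in all, and each was far below both hair follicle libraries. Against hair follicle it fell by 5.63 on the log2 scale (SE 0.35, adjusted p = 4.47e-10, edgeR).

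CD34 gave 15 counts over the 9 libraries, with a lowest level of 0, a median of 0.436 and a highest of 2.94 CPM. On pooled unscaled counts the level in hair follicle was 61.8 times as high (95% interval 35.8 to 115, counting error only), and edgeR's adjusted p was 7.68e-09. LGR5 gave 3 counts, all in the third early library with inhibitor, which is the deepest of the series. The level in hair follicle was 58.2 times as high on pooled counts (95% interval 17.1 to 307), with an adjusted p of 0.000176 by edgeR.

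KRT75 stood at 12.8, 3.45 and 8.44 CPM in early organoids with inhibitor, and at 8.09 and 17.9 CPM in later ones. In early organoids without inhibitor it stood at 7.999 and 12.6 CPM, and in the later ones at 8.73 and 130.3 CPM. The second later library without inhibitor, with 312 counts of KRT75, stood apart from the other 8. Against hair follicle KRT75 fell by 5.06 on the log2 scale (SE 0.63, adjusted p = 2.13e-06, edgeR), and in no alternative did the adjusted p exceed 0.000284.

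The smaller falls were those of LRIG1 and SOX21. LRIG1 ranged from 0.835 to 6.67 CPM in the 9 organoid libraries (median 2.30, 60 counts), all below hair follicle. It fell by 1.57 on the log2 scale (SE 0.55, adjusted p = 0.0401, edgeR). SOX21 ranged from 38.3 to 125 CPM (median 86.4), also all below hair follicle, and fell by 0.81 (SE 0.27, adjusted p = 0.0308, edgeR). Both calls rest on few libraries. They were lost without either hair follicle library, without the second early library lacking inhibitor, and without the second later library of either kind, and that of LRIG1 also without the second early library with inhibitor. The adjusted p ran up to 0.299 for LRIG1 and 0.263 for SOX21, and SOX21 also missed the threshold with no filter on low counts.

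DKK3 and PHLDA1 went up in culture. DKK3 stood at 189.7, 165 and 199 CPM in early organoids with inhibitor and at 414 and 530.2 CPM in later ones. Without inhibitor it stood at 299 and 589 CPM early and at 446 and 591 CPM later. The lowest organoid library was above the highest tissue library, and the rise over hair follicle was 2.14 on the log2 scale (SE 0.35, adjusted p = 6.81e-05, edgeR). PHLDA1 stood at 521, 379 and 408 CPM in early and at 493 and 771 CPM in later organoids with inhibitor, and at 97.3, 134, 149 and 502 CPM in the 4 libraries without it. All 9 were above both hair follicle libraries, and the rise was 2.26 (SE 0.46, adjusted p = 0.000721, edgeR).

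The 4 organoid groups were also set against the same hair follicle libraries one at a time, so that these values share their reference. LHX2, CD34, LGR5, KRT75 and DKK3 were called in each of the 4, where between 14.4% and 22.9% of all genes were called. LHX2, CD34 and LGR5, which had entered the test through no follicle organoid library, again count only as a description. DKK3 had its lowest value, a log2 change of 1.11 (SE 0.36), in early organoids with inhibitor, and values of 2.38 to 2.60 in the others. PHLDA1 had its lowest value, 0.81 (SE 0.51, adjusted p = 0.321, edgeR), in early organoids without inhibitor, and values of 2.29 to 3.25 in the others. LHX2 changed by -4.71 and -4.51 in the early groups and by -6.12 and -7.19 in the later groups.

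**Figure D2:**
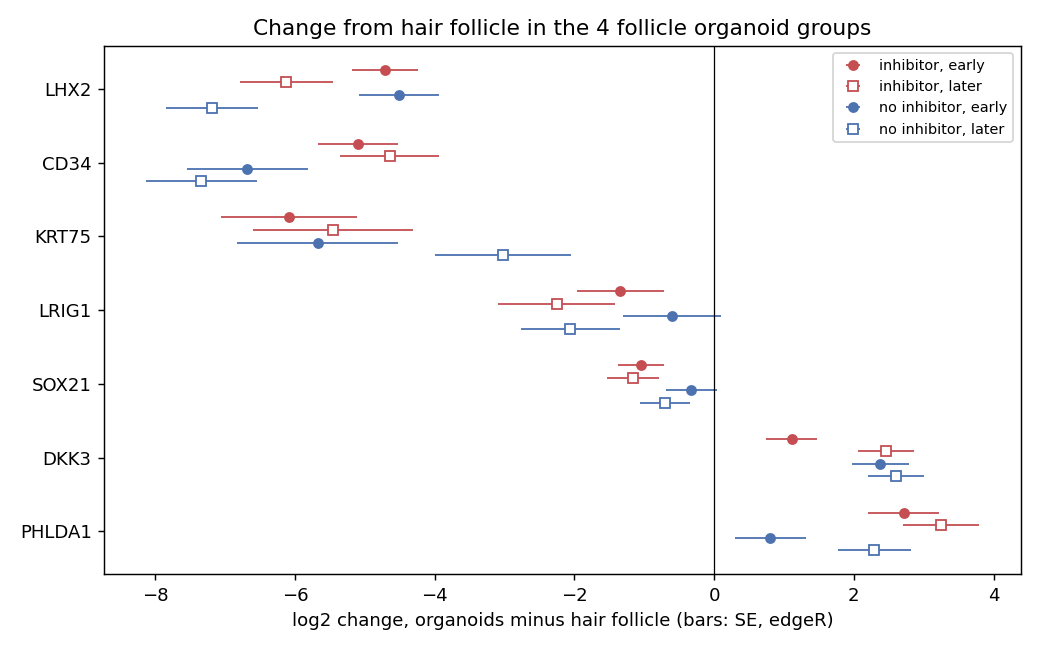
Log2 change against hair follicle, with SE, of 7 genes in the 4 groups of follicle organoids in expansion medium; colours give the inhibitor and open squares the later passage. LHX2, CD34, KRT75, LRIG1 and SOX21 lie below 0, the LHX2 values of the later passages lie furthest left for that gene, and DKK3 and PHLDA1 lie above 0 in all 4 groups. LGR5 and SOX9 are left out because whole groups are at 0.

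Marker genes of other follicle and skin cells moved with these falls. The 11 hair shaft and inner root sheath markers summed to 6818 and 7885 CPM in hair follicle and to between 50.7 and 91.5 CPM in the 9 organoid libraries, where each of the 11 had a count in at least 1 library. All 7 fibroblast markers gave 50.03 to 485 CPM in the organoids, the 6 endothelial markers 2.69 to 6.76 CPM with KDR and CLDN5 at 0, and the 5 immune markers 1.99 to 10.8 CPM with PTPRC at 0. Their part in the falls of LHX2, CD34, LGR5 and KRT75 was not tested.

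LHX2 and KRT75 were also set beside the hair shaft genes of the same library. KRT75 amounted to 118 and 40.2 CPM per 1000 CPM of the summed hair shaft list in the hair follicle libraries and to between 60.6 and 265 in 8 of the 9 follicle organoid libraries. In the second later library without inhibitor it amounted to 1926. LHX2 amounted to 33.4 and 17.8 CPM per 1000 in hair follicle, to between 73.5 and 237 in the 5 early organoid libraries, and to between 6.17 and 38.8 in the 4 later ones. In the epidermis library with 10 counts of LHX2 it amounted to 32.8. These ratios are descriptions of single libraries, some of them on fewer than 10 counts.

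**Figure D3:**
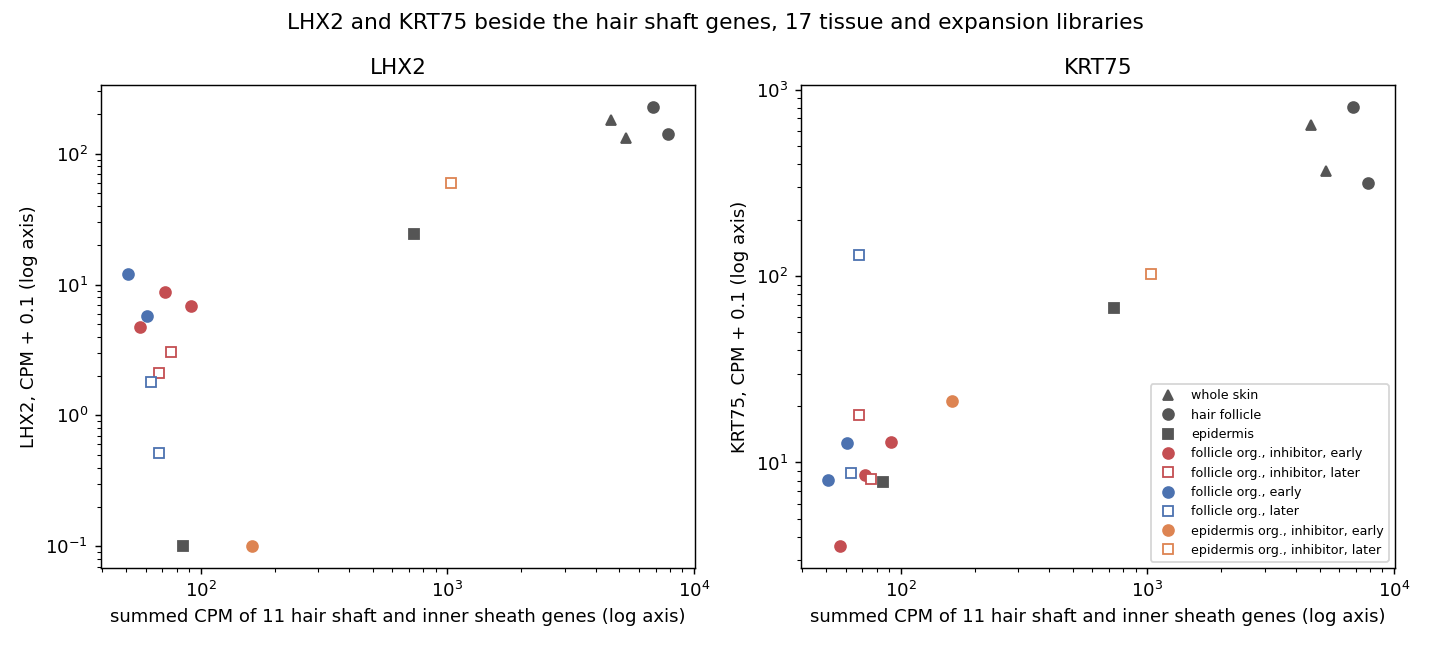
LHX2 (left) and KRT75 (right), as CPM + 0.1, against the summed CPM of 11 hair shaft and inner root sheath genes in the 17 tissue and expansion libraries, both axes logarithmic. For KRT75 the second later library without inhibitor (130.3 CPM) stands above all other libraries with a similar hair shaft sum; for LHX2 the 9 follicle organoid libraries span 0.418 to 12 CPM at nearly the same sum.

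The TGF-beta inhibitor went with more PHLDA1 in follicle organoids. PHLDA1 averaged 534 CPM over the inhibitor groups and 221 CPM over the others, and all inhibitor libraries lay above 3 of the 4 libraries without it. The second later library without inhibitor, at 502 CPM, overlapped them. The log2 difference was 1.43 (SE 0.34, adjusted p = 0.026, edgeR), PHLDA1 was the only member called, and 2.68% of all genes were called, 1.92% as higher with the inhibitor. The call was lost in 4 of the fits that leave out 1 library: either early library without inhibitor, the first later library without it, or the second later library with it. Over all alternatives the difference ran from 1.12 to 1.99 and the adjusted p from 0.000349 to 0.142. By passage the difference was 1.91 early (SE 0.48, adjusted p = 0.0526) and 0.96 later (SE 0.49, adjusted p = 0.979, edgeR). The 5 suprabasal keratinocyte markers (KRT1, KRT10, DSG1, SBSN and KRTDAP) summed to between 1891 and 6982 CPM with the inhibitor and between 3387 and 14160 CPM without it, with overlap, and all 5 had a count on both sides. Their part in the level of PHLDA1 was not tested.

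DKK3 and SOX21 leaned the opposite way without being called. DKK3 averaged 328 CPM with and 481 CPM without inhibitor, a log2 difference of -0.70 (SE 0.26, adjusted p = 0.168, edgeR). Early in culture all 3 inhibitor libraries lay below both others, with a difference of -1.27 (SE 0.34, adjusted p = 0.066), whereas later the difference was -0.14 (SE 0.38). DESeq2 called DKK3 at an adjusted p of 0.0479. SOX21 averaged 67.1 CPM with and 102 CPM without inhibitor, a difference of -0.59 (SE 0.25, adjusted p = 0.263, edgeR). KRT75 averaged 10.6 CPM with and 39.9 CPM without inhibitor, a difference of -1.42 (SE 0.74, adjusted p = 0.402, edgeR) that was 0.066 without the second later library lacking inhibitor. LHX2 averaged 4.57 and 4.94 CPM, with overlap, and a fitted difference of 0.44 (SE 0.52).

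SOX9 counts fell almost entirely on the inhibitor side. The early libraries with inhibitor held 5, 1 and 8 counts and the later ones 2 and 0, whereas the 4 libraries without it held 0, 0, 0 and 1. On pooled counts the ratio was 13.2 (95% interval 2.04 to 552, counting error only), and the edgeR log2 difference of 2.98 (SE 1.47) had an adjusted p of 0.376. CD34 gave 13 counts with and 2 without inhibitor, a pooled ratio of 5.34 (interval 1.21 to 48.8), with an adjusted p of 0.214. Neither gene was called.

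Between early and later passages of follicle organoids edgeR called 0 of the 9 members, against 0.354% of all genes. At an unadjusted p under 0.05 there were 5 members (and 7.19% of all genes), and DESeq2 called 1 of them, LHX2. LHX2 averaged 7.75 CPM early and 1.76 CPM later, and all 5 early libraries (4.60 to 12 CPM, 78 counts) lay above all 4 later ones (0.418 to 2.94 CPM, 13 counts). The log2 change of -2.05 (SE 0.51) had an adjusted p of 0.122 by edgeR, and over all alternatives the adjusted p ran from 0.00452 to 0.529. It was -1.42 (SE 0.71) with inhibitor and -2.68 (SE 0.74) without.

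The other 4 at an unadjusted p under 0.05 were LRIG1, DKK3, PHLDA1 and KRT75. LRIG1 averaged 4.31 CPM early and 1.71 CPM later, with overlap. DKK3 averaged 314 and 495 CPM, and PHLDA1 276 and 479 CPM. KRT75 averaged 9.27 CPM early and 41.3 CPM later, a log2 change of 1.64 (SE 0.74, adjusted p = 0.654, edgeR) that was 0.16 without the second later library lacking inhibitor. The inhibitor difference at later against early passage was called for 0 members and 0% of genes, with 1 member (DKK3, 1.13, SE 0.51) and 267 genes (2.70%) at an unadjusted p under 0.05, and 0 members by DESeq2.

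Fibroblast markers also moved with passage. All 7 fibroblast markers gave 76.0 to 485 CPM in the early organoids and 50.03 to 61.4 CPM in the later ones, with PDGFRA at 0 later. The 3 melanocyte markers in the lists, of 5, gave 263 CPM in the first early library without inhibitor, and the other early libraries, from 5.75 to 11.4 CPM, overlapped the later ones, from 6.62 to 13.0 CPM. The hair shaft list gave 50.7 to 91.5 CPM early and 62.8 to 75.8 CPM later. Their part in the levels of LHX2 was not tested.

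Interfollicular organoids, with 1 early and 1 later library, shared the higher PHLDA1 and DKK3. PHLDA1 stood at 600.1 and 132 CPM, against 24.1 and 7.71 CPM in epidermis, a rise of 3.88 on the log2 scale (SE 0.68, adjusted p = 0.000691, edgeR). DKK3 stood at 204 and 289 CPM, against 72.4 and 108 CPM, a rise of 1.48 (SE 0.43, adjusted p = 0.0313). These 2 of 9 members were called, both as higher, against 11.3% of all genes in either direction and 6.78% higher. The call of DKK3 was lost on plain library totals, without the first epidermis library and without the later organoid library, with an adjusted p of up to 0.261. The 5 suprabasal keratinocyte markers, all with a count in both, summed to 12530 and 16310 CPM in epidermis and to 1219 and 2074 CPM in its organoids, and their part in the levels of PHLDA1 and DKK3 was not tested.

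The later interfollicular library stood apart in the follicle markers. It held 10 counts of LHX2 (60.1 CPM), where the early library held 0, and 17 counts of KRT75 (102 CPM), where the early one held 11 (21.2 CPM). Its total was 219881 counts. The 11 hair shaft markers summed to 1034 CPM in it, with KRT71 at 0, and to 162 CPM in the early library, with KRT71 and KRT72 at 0. The 7 fibroblast markers gave 709 and 137 CPM and the 5 immune markers 84.2 and 11.5 CPM, in the same order. Their part in the LHX2 and KRT75 counts of this library was not tested.

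The 2 interfollicular libraries were compared with the follicle organoids grown with inhibitor. None of the 9 members was called by edgeR or DESeq2, against 6.37% of all genes by edgeR, and 1 member, KRT75, had an unadjusted p under 0.05. KRT75 averaged 61.7 CPM in interfollicular and 10.6 CPM in follicle organoids, and the lowest interfollicular library, at 21.2 CPM, lay above the highest follicle library, at 17.9 CPM. The log2 difference was 2.18 (SE 0.995, adjusted p = 0.273, edgeR). The difference for DKK3 was -0.28 (SE 0.34) and for SOX21 0.02 (SE 0.36). SOX21 stood at 59.6 and 78.2 CPM in the interfollicular libraries, within the 38.3 to 101.0 CPM of the follicle organoids with inhibitor. In a test added after the data were seen, the culture effect, organoid minus tissue, was compared between follicle and interfollicular material, and 1 of the 9 members, KRT75, was called, against 3.94% of all genes.

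In differentiation medium SOX21 fell, and LHX2, CD34 and LRIG1 gave no count. SOX21 stood at 8.28 and 6.85 CPM in differentiation medium, at 24.1 and 29.6 CPM without Noggin and R-Spondin-1, and at 15.97 and 21.5 CPM also without Forskolin (41 counts in all). The later organoids in expansion medium stood at 91.8 and 86.4 CPM, above every differentiation library. SOX21 fell by 2.51 on the log2 scale (SE 0.33, adjusted p = 4.77e-05, edgeR), and in no alternative did the adjusted p exceed 0.00193. Of the 8 listed members 2 were called, against 14.5% of all genes, of which SOX21 fell (10.1% of all genes fell) and SOX9 rose (4.40% rose). SOX9 had entered the test only through 1 of these differentiation libraries and counts toward this only as a description. At an unadjusted p under 0.05 there were 3 members and 30.3% of genes. The differentiation libraries also have their own kind of count list, so medium and kind of list cannot be told apart in this comparison.

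Set against the same expansion libraries one medium at a time, SOX21 was called in each. It changed by -3.50 (SE 0.52, adjusted p = 0.0026) in the full differentiation medium, by -1.73 (SE 0.43, adjusted p = 0.0228) without Noggin and R-Spondin-1, and by -2.29 (SE 0.47, adjusted p = 0.0122, edgeR) also without Forskolin. Between 3.33% and 5.88% of all genes were called in these comparisons. Noggin blocks BMP signals and R-Spondin-1 amplifies Wnt signals. The 4 libraries lacking both had more SOX21 than the 2 with them, by 1.496 on the log2 scale (SE 0.55), with no overlap. That difference had an unadjusted p of 0.0133 and an adjusted p of 1 by edgeR, where 0% of all genes were called and 3.66% had an unadjusted p under 0.05.

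**Figure D4:**
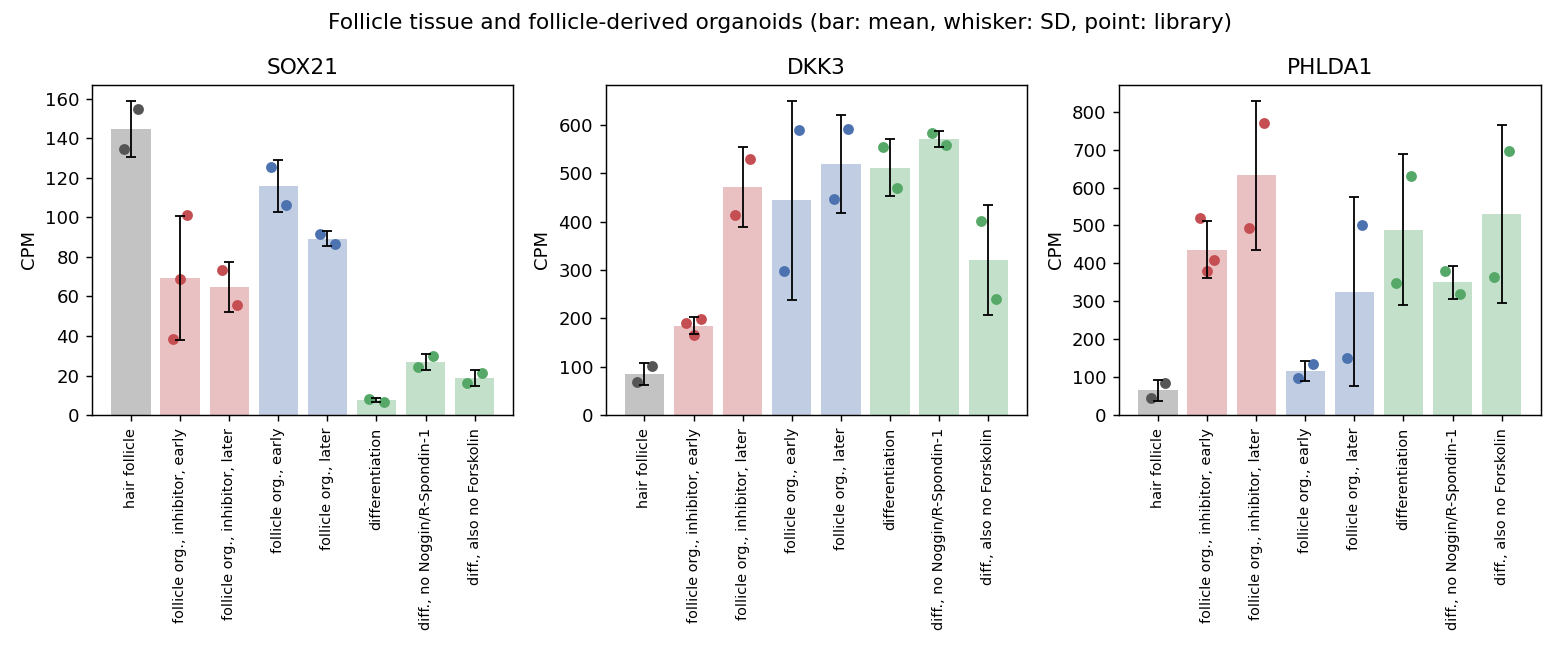
CPM of SOX21, DKK3 and PHLDA1 in hair follicle, in 4 groups of follicle organoids in expansion medium and in 3 differentiation media; bars are means, whiskers SD and points libraries. SOX21 is below 30 CPM in all 6 differentiation libraries and above 38 CPM in all others shown, whereas DKK3 and PHLDA1 in differentiation media overlap the expansion libraries.

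SOX9 was the other member called. It gave 3 and 2 counts in differentiation medium (4.97 and 6.85 CPM), 0 and 7 counts without Noggin and R-Spondin-1 (0 and 17.3 CPM), and 0 and 3 counts also without Forskolin (0 and 12.9 CPM), against 0 and 1 count in expansion medium. The groups overlapped at 0. The pooled ratio was 36.1 (95% interval 5.55 to 1519, counting error only), and edgeR gave an adjusted p of 0.0392. This call was lost with the replicate number as a block (adjusted p = 0.061), in a fit of the compared groups alone, and without either expansion library or the second library of any of the 3 media, with an adjusted p between 0.00401 and 1 over all alternatives.

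LHX2, CD34 and LRIG1 gave 0 counts in all 6 differentiation libraries, which allows up to 1.19 CPM over the 6 together. LRIG1 had 12 counts in the expansion libraries, 1.66-fold that limit on pooled unscaled counts, and its adjusted p was 0.0745 by edgeR. The counting error of the 12 counts is not in this ratio. LHX2 had 7 counts and CD34 1 count there, at or under that limit, so a difference in them was not detectable at this depth. The pooled level in hair follicle was 152-fold that limit for LHX2, 38.6-fold for CD34 and 7.64-fold for LRIG1, again without the counting error of the follicle counts. The 4 hair shaft markers listed in every library (KRT72, KRT73, KRT32 and TCHH) were also all at 0 in the 6 differentiation libraries, against 13.3 to 31.6 CPM in the 9 expansion libraries, as were the 3 immune markers listed there. The 7 fibroblast markers gave 0 to 25.8 CPM, with LUM and PDGFRA at 0, and the 3 endothelial markers listed there 8.28 to 33.7 CPM, with EMCN at 0. The part of these in the 0 counts was not tested.

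DKK3, PHLDA1 and KRT75 were not called in differentiation media, where their levels overlapped those in expansion medium. DKK3 ranged from 241 to 583 CPM over the 6 libraries, a log2 change of -0.19 (SE 0.30), and PHLDA1 from 319 to 696 CPM, a change of 0.46 (SE 0.41). KRT75 stood at 69.6 and 3.42 CPM, at 147 and 12.3 CPM and at 93.5 and 98.8 CPM in the 3 media, a change of -0.02 (SE 0.78). The first library of the first 2 media was well above the second. Without Forskolin, which raises cyclic AMP, DKK3 stood at 402 and 241 CPM against 583 and 558 CPM with it. That log2 change of -0.82 (SE 0.39) had an unadjusted p of 0.0467 and an adjusted p of 1 by edgeR. In the comparisons of Noggin with R-Spondin-1 and of Forskolin, edgeR and DESeq2 each called 0 of the 8 members, with 1 member each at an unadjusted p under 0.05. Forskolin withdrawal gave 0% of genes called, and 329 genes (3.38%) at an unadjusted p under 0.05.

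Other genes of the same compartments went in both directions in culture. Of 28 further bulge and hair germ genes, 25 were listed and 18 passed the filter on low counts and were tested. From hair follicle to follicle organoids 12 fell and 1 rose, with a median log2 change of -2.44, where 19.0% of all genes fell and 9.06% rose. Among those that fell, BMP6, CD200 and POSTN averaged 0.257, 0.149 and 0.57 CPM in the organoids. At these means no follicle organoid library reached the filter's 14.3 CPM, so these genes were tested because of other groups. The count of 12 and the median therefore count only as a description. The 4 falls with the smallest p were those of KRT19, LGR4, CXCL14 and BMP6. KRT19, a keratin of bulge cells, went from 41 to 1.32 CPM (log2 change -5.03). LGR4, an R-spondin receptor, went from 106 to 23.8 CPM (-2.25), and the growth factor BMP6 from 12.4 to 0.257 CPM on 5 counts (-5.05). The chemokine CXCL14 went from 1861 to 714 CPM (-3.45), but its organoid groups were unlike. It averaged 71.4 CPM with inhibitor, 1357 CPM without, and 64.9 CPM in the later organoids without inhibitor. The early organoids without inhibitor therefore lay above hair follicle on average. ITGA6, the integrin that anchors basal cells, rose from 158 to 619 CPM (1.94, SE 0.35). Of 16 outer root sheath and companion layer genes, 15 were listed and tested, 7 rose and 3 fell, with a median of 0.38, beside the same shares of all genes. Those that rose with the smallest p were S100A2 (2.49), KRT14 (2.90), KRT6A (2.57) and KRT5 (2.76), genes that basal or activated epidermis also expresses. TRPS1 (-2.08), VDR (-1.78) and ITGB8 (-4.29) fell. ITGB8 averaged 0.934 CPM in the organoids, on 19 counts. It too was tested because of other groups, so its fall, and the count of 3 with it, is only a description. KRT6A and other type II keratins have close paralogs, among which reads can be split.

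The other comparisons of these 2 lists gave between 0 and 8 called genes of a list in 1 direction. Between hair follicle and epidermis, SFRP1 (1.78), TRPS1 (2.56) and GJB6 (3.44, on 322 against 7 counts) were higher in follicle. These were 1 of 18 bulge and germ genes and 2 of 15 sheath genes, where 2.05% of all genes were higher. TRPS1 was also lower in epidermis than in whole skin (-2.33), where 1.40% of all genes were lower. With inhibitor, the activin antagonist FST fell by 2.65 and CXCL14 by 2.57 (0.758% of all genes fell), while S100A2 rose by 1.57 and BARX2 by 1.49 (1.92% rose). At later passage, CXCL14 (-3.02) and the Hedgehog effector GLI2 (-4.62, on 6 later against 80 early counts) fell, as did 0.182% of all genes. CXCL14 averaged 71.4 CPM with and 1357 CPM without inhibitor, and 1369 CPM early and 59.9 CPM later. The later organoids without inhibitor averaged 64.9 CPM. Both high means of CXCL14 therefore came mainly from the early organoids without inhibitor, and the 2 differences are not separate. In interfollicular organoids against epidermis 8 of the 15 sheath genes rose, where 6.78% of all genes rose, with the smallest p for S100A2 (3.14), CDH3 (3.05), KRT6A (2.92) and GJB2 (3.30), and of the 18 bulge and germ genes SFRP1 rose (1.55) and NFIB (-1.42) and CXCL14 (-2.26) fell, where 4.50% of all genes fell. Against follicle organoids with inhibitor the interfollicular ones had more NFIX (5.38, on 30 against 8 counts) and CXCL14 (2.39), where 5.86% of all genes were higher. Of the 30 NFIX counts 7 were in the early interfollicular library and the rest in the later one, which stood apart above. NFIX averaged 1.01 CPM in the follicle organoids with inhibitor. It was thus tested because of other groups, and its difference counts only as a description. In the added test of culture effects, which holds the same interfollicular libraries, NFIX was lower (-5.38), where 3.49% of all genes were lower. In differentiation media CXCL14 rose by 1.82 and FST (-1.41), CTSV (-1.68) and KRT5 (-1.28) fell, where 4.40% of all genes rose and 10.1% fell.

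Genes whose group means ran most like a member's were named over the 12 group means, as Pearson's r among 7583 candidates, a description without a test, since the means share libraries and depth. For LHX2 they were NKD1 (0.98), BAMBI (0.97) and C1QTNF3 (0.97). For CD34 they were ACTG2 (0.99), PNPLA3 (0.98) and ECM2 (0.98), and for KRT75 SLC39A8 (0.98), CYB5R2 (0.96) and DAB2 (0.94). For DKK3 they were CCT5 (0.97), SAE1 (0.95) and ALG3 (0.94), for PHLDA1 FHL2 (0.97), P4HA2 (0.97) and TUBB6 (0.96), and for SOX21 IDS (0.97), SAFB (0.97) and MSL3 (0.94). LGR5, SOX9 and LRIG1 had too few counts for this.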

How the data were processed

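The authors deposited 1 list of CEL-seq2 estimated counts per gene and library, made from the aligned reads and not normalized. Most are whole, and between 4.91% and 10.65% of the lines of a library carry a fraction. Per the submitters' processing notes, BWA 0.6.2-r126 and the build CanFam3.1 were used. For the annotation, the counting program and the collapse of barcodes, details were not given in the sources used here. Counts without a gene name (0.461% to 2.158% per library) were left out, counts were rounded, an entry a file does not list was taken as 0 for the fit, and 0 columns were left unused. Of 6698 provisional names, 401 were paired with symbols through RefSeq.

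All 23 libraries entered 1 fit with a mean per group (R 4.3.3, edgeR 4.0.16, glmQLFit and glmQLFTest, TMM, filterByExpr, 11 residual degrees of freedom, Benjamini-Hochberg over all genes tested). Pooled ratios use unscaled totals with exact 95% intervals. The 9 members are named whatever their values, of the related lists up to 4 called genes per direction with the smallest p, and for members with at least 200 counts the 3 genes with the highest r. The members and lists were chosen with earlier results of these data known. Alternatives were RLE size factors, library totals, no filter, the replicate number as a block, the compared groups alone, DESeq2 1.42.0 and leaving out each library. The model was tested on simulated data.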

Additional observations from a re-analysis of the deposited data

Results flagged for a closer look

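The change of KRT75 from tissue to culture differed between follicle and interfollicular material. The difference was tested as an interaction, added after the data were seen: the log2 change in follicle material with inhibitor minus that in interfollicular material was -5.785 (SE 1.48, adjusted p = 0.0258, edgeR), where 3.94% of all genes were called. KRT75 fell from 806 and 317 CPM in hair follicle to between 3.45 and 17.9 CPM in follicle organoids with inhibitor, whereas interfollicular epidermis stood at 67.6 and 7.71 CPM and its organoids at 21.2 and 102 CPM. The call was lost without either epidermis library, the first hair follicle library, the later interfollicular organoid library or the first later follicle library with inhibitor, with values from -8.36 to -4.65 and an adjusted p of up to 0.322 over all alternatives. The higher interfollicular organoid library is the one with 1034 CPM of hair shaft markers, and the part of these in the difference was not tested.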

How the results depend on the processing

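Of the 16 member changes called, 9 kept direction and call in all alternatives. The cause of the other shifts was not tested. Between follicle organoids and hair follicle, LRIG1 and SOX21 lost their calls in several fits that leave out 1 library, as given above. The other members called there kept theirs. Leaving out each library gave ranges of members called of 0 to 1 for epidermis against whole skin, 1 to 2 for interfollicular organoids against epidermis, 0 to 1 for the inhibitor, 0 to 1 for interfollicular against follicle organoids, 1 to 2 for differentiation media and 0 to 2 for the added test of culture effects. With no filter on low counts there were 2 members for follicle against epidermis, 2 for epidermis against skin, 2 for the inhibitor, 2 for passage and 1 for interfollicular against follicle organoids. In the compared groups alone there were 3 for follicle against epidermis, 2 for epidermis against skin, 1 for interfollicular against follicle organoids and 1 for differentiation media. DESeq2 gave 2 for the inhibitor, 1 for passage and 1 for differentiation media. Uncalled KRT75 with inhibitor (-1.42) ran from -1.875 to 0.066 without 1 library, turning sign without the second later library lacking inhibitor. Uncalled PHLDA1 in interfollicular against follicle organoids (-0.90) ran from -1.987 to 0.194, turning sign without the later interfollicular library.

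With the replicate number as a block, members called in differentiation media went from 2 to 1, and no other count of members changed. Same-numbered libraries of the 3 differentiation media deviated together (r = 0.594, 0.465 and 0.498), a hint on 2 numbers only. Elsewhere r ran from -0.448 to 0.191. The numbers were not taken to pair libraries.

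Counts over all genes moved more. Follicle against epidermis called 276 genes (709 in the compared groups, 481 unfiltered, 112 to 171 without 1 library), epidermis against skin 154 (378, 285, at least 67), organoids against follicle 2772 (1411 without the second follicle library), interfollicular organoids against epidermis 1115 (414 without the first epidermis library), the inhibitor 265 (641 unfiltered, at least 105), passage 35 (171 unfiltered, 59 by DESeq2, 18 with the block, at least 9), interfollicular against follicle organoids 630 (70 without the later interfollicular library), differentiation 1411 (543 in the compared groups, 412 without the first expansion library) and the added test 390 (81 to 669). Where 0 were called, no filter gave 2 genes for follicle against skin (12 in the compared groups), 39 for inhibitor by passage, 21 for Noggin with R-Spondin-1 and 20 for Forskolin. On plain library totals the higher and lower calls became 145 and 143 (203 and 73) for follicle against epidermis, 37 and 107 (16 and 138) for epidermis against skin, 597 and 2206 (896 and 1876) for organoids against follicle, 389 and 1098 (670 and 445) for interfollicular organoids, 134 and 115 (190 and 75) for the inhibitor and 114 and 303 (45 and 345) for the added test. For interfollicular organoids the all-gene median went from -0.14 to -0.70, and SOX21 and CD34 were then called and DKK3 was not. Depth limits LGR5, SOX9 and, in differentiation media, LHX2, CD34 and LRIG1.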
